A study of Mus musculus with 10 samples.

Results

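The aminoacyl tRNA synthetase genes described here are the rows of the deposited expression table whose symbol is a single letter followed by ars, alone or with a closing digit, together with Farsa, Farsb, Eprs and Tarsl2. The rule found 38 genes among 16290 rows, and all 38 had a normalised read count of at least 10 in at least 2 libraries, the filter that left 15694 genes for testing. Genes ending in 2 were taken as mitochondrial (17 genes) and the others as cytosolic (21 genes). Tarsl2, which encodes a second cytosolic threonyl enzyme, was counted as cytosolic despite its ending. Gars and Kars, each of which makes both the cytosolic and the mitochondrial enzyme for its amino acid, were counted with the cytosolic genes.

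The 10 RNA-seq libraries came from FVB mouse mammary epithelial cells, with 3 libraries of the genotype labelled NIC-Prmt1, 3 labelled NIC-Carm1, 2 labelled NIC-Prmt6 and 2 labelled NIC. NIC is common to every group and is not spelled out in the labels. The study asked how the transcriptome changes when a protein arginine methyltransferase is overexpressed on it. Neither the age of the mice nor the promoter that drives each methyltransferase was given in the sources used here. The labels do not say whether libraries of a group came from separate mice, so p-values measure only the spread between these libraries.

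Each synthetase attaches an amino acid to its matching tRNA, the step that fixes which amino acid a codon adds. The cytosolic enzymes serve protein synthesis on cytosolic ribosomes. The mitochondrial ones are also encoded in the nucleus, are imported, and charge the tRNAs used to translate the respiratory chain subunits of the mitochondrial genome. Several cytosolic enzymes sit in the multisynthetase complex, held together by the scaffold proteins of Aimp1, Aimp2 and Eef1e1. When amino acids run short, the transcription factor ATF4 raises the genes of many cytosolic synthetases, along with those for amino acid synthesis and import.

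The libraries held 21589274 to 30260921 recovered reads. Prmt6 had 873 and 909 normalised reads in NIC-Prmt6 cells, against 387 and 451 in NIC cells. Carm1 had 2479, 2324 and 2146 normalised reads in NIC-Carm1 cells, against 1556 and 1567 in NIC cells, but it was also higher in NIC-Prmt1 and NIC-Prmt6 cells (log2 fold changes of 0.46 ± 0.09 and 0.60 ± 0.10, limma adjusted p = 0.00639 and 0.00204). Prmt1 differed from NIC by 0.05 ± 0.12 in NIC-Prmt1 cells (adjusted p = 0.784), so the NIC-Prmt1 label is not matched by a higher level of that gene, and NIC-Prmt1 below means the libraries so labelled. A chi-square of reads per degree of freedom was 2.44 and 2.69 for NIC-Prmt6 replicates 1 and 2 and NIC-Carm1 replicates 2 and 3, against 28.0 to 105 for the other 6 pairs within groups. Those 2 pairs lay much closer than replicates did elsewhere, so counts are also given with each such pair averaged to a single library. All 6 luminal and all 5 basal epithelial markers were detected in every library. Luminal markers summed to 5707 to 7675 CPM of recovered reads in NIC-Prmt1, 5287 to 6332 in NIC-Carm1 and 5222 to 5232 in NIC-Prmt6 libraries, against 8361 to 10001 in NIC libraries. Fibroblast markers (4 of 4 detected throughout) summed to 2738 to 3942, 1854 to 2180 and 6606 to 6614 CPM in the same groups, against 1957 to 2263 in NIC. Adipocyte markers (4 of 4) summed to 611 to 943, 341 to 365 and 1093 to 1123, against 250.2 to 298 in NIC. Basal markers summed to 1739 to 3208 CPM in NIC-Prmt1, 917 to 972 in NIC-Carm1 and 983 to 985 in NIC-Prmt6 libraries, against 666 to 783 in NIC. Endothelial markers (4 of 4) summed to 1138 to 1575, 654 to 745 and 1553 to 1571 in those groups, against 660.4 to 772 in NIC, and macrophage markers (5 of 5) to 114 to 205, 139 to 276 and 376 to 387, against 82.3 to 112.5 in NIC. Milk protein markers summed to 1819 to 3764 CPM in NIC-Prmt1, 5647 to 30659 in NIC-Carm1 and 1129.6 to 1161 in NIC-Prmt6 libraries, against 5567 to 5668 in NIC, and the value of 30659 was that of NIC-Carm1 replicate 1. Skin keratinocyte markers (5 of 6 in the table) stood apart in NIC-Prmt1 replicate 1, at 937 CPM, with 73.9 in NIC-Prmt1 replicate 3 and at most 6.36 in the other 8 libraries. In such bulk RNA, fewer cells of a type and less RNA per cell cannot be told apart, and the part of these markers in the results below was not tested.

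Expressed per kilobase of the longest coding transcript, the cytosolic genes were the more abundant class. Their median level was 638 normalised reads per kilobase, between 93.2 for Tarsl2 and 1716 for Qars, the glutaminyl enzyme. Mitochondrial genes had a median of 162 normalised reads per kilobase, between 16.4 for the methionyl gene Mars2 and 4651 for the leucyl gene Lars2. Behind Lars2, the highest levels per kilobase were those of Qars, the lysyl gene Kars (1595), the asparaginyl gene Nars (1566) and the seryl gene Sars (1177). The library ranges of Qars (1326 to 2197), Kars (1217 to 2084) and Nars (1191 to 2354) overlapped, so their order is not fixed. Pars2, the mitochondrial prolyl gene, had the fewest normalised reads of all members, 27.0 to 68.9 per library. The 21 cytosolic genes together took 0.157% to 0.167% of reads in NIC-Prmt1, 0.177% to 0.199% in NIC-Carm1 and 0.150% to 0.151% in NIC-Prmt6 libraries, against 0.193% to 0.202% in NIC libraries. The NIC-Prmt1 and NIC-Prmt6 shares lay below both NIC libraries, and NIC-Carm1 replicate 1, at 0.199%, lay between them.

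**Figure D1:**
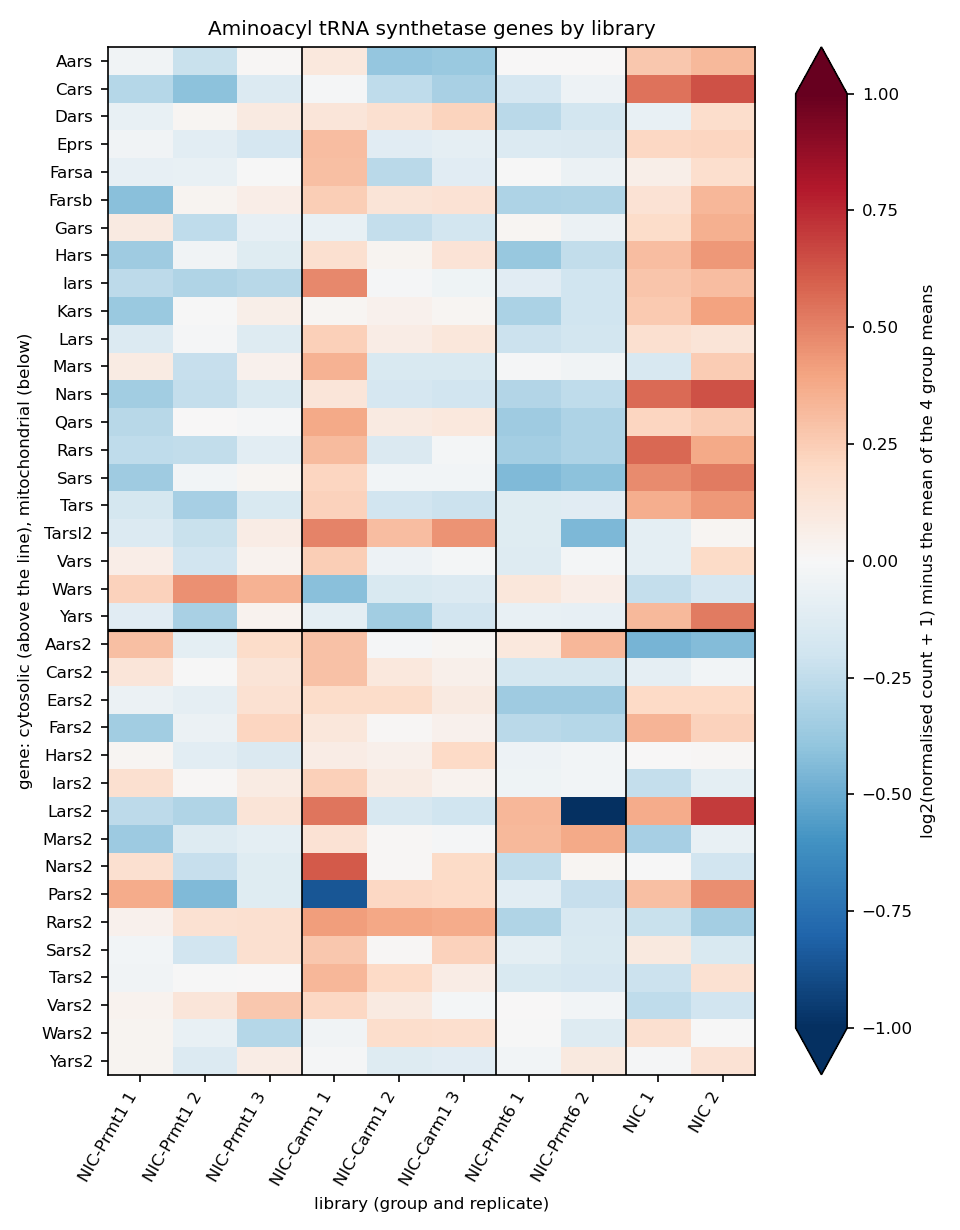
Heat map of 37 of the synthetase genes (rows) in the 10 libraries (columns), coloured by log2(normalised count + 1) minus the gene's mean over the 4 group means. Most cytosolic genes are above 0 in both NIC libraries and below it in those of NIC-Prmt1 and NIC-Prmt6, while Wars, Aars2 and Rars2 run the other way in NIC and Lars2 splits the NIC-Prmt6 pair.

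The promoters of 27 of the 38 members were in the RefSeq promoter table (GRCm38.p6), which covers 250 bases before to 50 bases after each start. Each was searched on both strands for TGATGNAA, the core of the composite element bound by ATF4 with CCAAT enhancer binding proteins. The letters were found at 5 of the 27 members (18.5%), against 2.95% of the 11717 tested genes with a promoter there and 4.51% of all 27025 genes. A gene counted once if any of its promoters matched. All 5 belong to the cytosolic class (5 of 13, 38.5%) and to the list of synthetases known as ATF4 targets (5 of 7, 71.4%). The 14 mitochondrial genes with a promoter there held none. One window of each gene is shown because these 5 genes are the ones whose levels are set against the ATF4 list below. They are Aars (alanyl), Gars (glycyl), Iars (isoleucyl), Tars (threonyl) and Yars (tyrosyl), read 5′ to 3′ on the gene's strand with the motif in capitals, and all but the Yars copy carry the letters on the opposite strand.
Aars, chr8:111033840-111033869, plus strand: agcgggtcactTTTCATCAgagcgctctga
Gars, chr6:55037960-55037989, plus strand: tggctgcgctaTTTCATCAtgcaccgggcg
Iars, chr13:49682126-49682155, plus strand: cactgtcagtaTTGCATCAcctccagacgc
Tars, chr15:11399655-11399684, minus strand: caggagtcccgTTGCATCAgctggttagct
Yars, chr4:129189895-129189924, plus strand: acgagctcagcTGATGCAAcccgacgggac
The TTGCATCA letters were shared by Iars and Tars, and Yars held the same letters read on the other strand. The Aars and Gars windows shown had TTTCATCA instead. A further Aars match, not shown, began at base -112 from the start and had TTGCATCA, as in Iars and Tars. In the windows shown, the motif began before the start in Gars and Tars, at bases -30 and -15. It began after the start in Aars, Iars and Yars, at bases 10, 8 and 4. With the search limited to the 250 bases before the start, 3 of the 27 members matched (11.1%), against 2.54% of the tested genes with a promoter there. Such a match describes letters only and does not show that a factor binds there. Cars, Hars, Hars2, Lars, Mars, Nars, Pars2, Rars, Vars and Wars were among the members with no entry.

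Averaged over each class, the cytosolic genes stood highest in NIC. Levels were centred per gene on the mean of the 4 group means, on the log2 scale. The cytosolic mean was -0.15, -0.13 and -0.03 in the NIC-Prmt1 libraries, 0.18, -0.08 and -0.04 in the NIC-Carm1 libraries and -0.17 and -0.17 in the NIC-Prmt6 libraries, against 0.20 and 0.31 in the NIC libraries. The mitochondrial mean was 0.01, -0.08 and 0.04 in NIC-Prmt1, 0.18, 0.09 and 0.11 in NIC-Carm1 and -0.09 and -0.14 in NIC-Prmt6, against -0.03 and 0.03 in NIC. The cytosolic mean minus the mitochondrial mean was 0 or below in all 8 libraries of the methyltransferase groups, between -0.17 and -0.002, against 0.24 and 0.28 in NIC, and no library of those groups reached either NIC library. NIC-Carm1 replicate 1, the library with the high milk protein markers, had the value nearest to NIC.

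**Figure D2:**
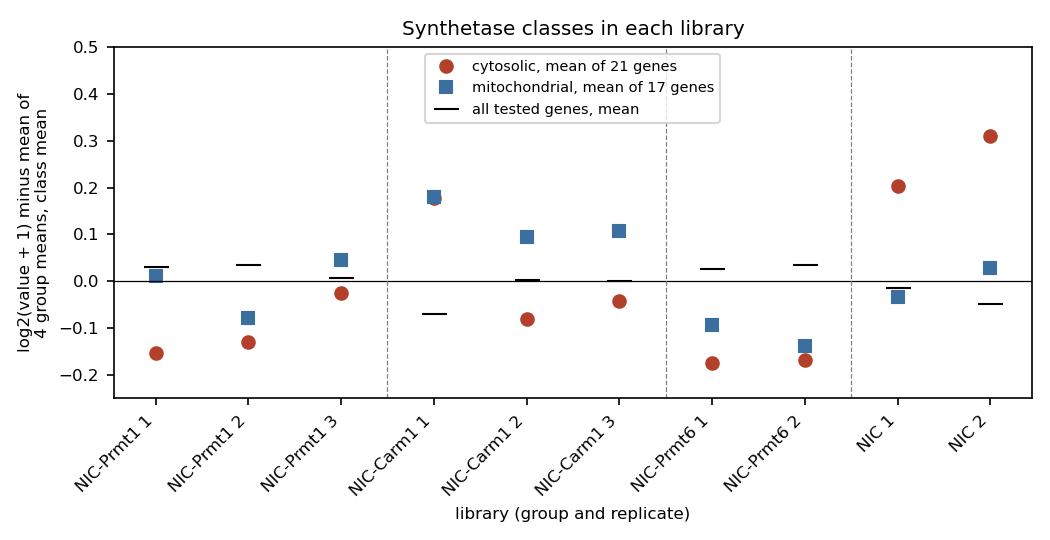
Mean centred log2 level of the 21 cytosolic genes (circles), the 17 mitochondrial genes (squares) and all tested genes (dashes) in each library, by group and replicate. Cytosolic genes lie above mitochondrial genes in both NIC libraries (by 0.24 and 0.28) and level with or below them in the other 8.

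In NIC-Prmt1 cells most of the changed synthetase genes were cytosolic and lower than in NIC. Of the 38 genes, 14 passed the limma threshold (adjusted p under 0.05 over all genes), 10 lower and 4 higher, where 29.6% of all genes tested passed, 14.4% lower and 15.2% higher. Among the 21 cytosolic genes, 10 fell and 1 rose, with a median log2 fold change of -0.355 and 20 of 21 below 0. The median of all genes was -0.004, with 50.3% below 0. The mitochondrial class had a median of 0.011 and 3 of its 17 genes rose.

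Nars had 3269, 3522 and 3734 normalised reads in NIC-Prmt1 cells, against 6155 and 6460.5 in NIC cells. Both NIC libraries lay far above all 3 NIC-Prmt1 libraries, which gave a log2 fold change of -0.85 ± 0.11 (limma, adjusted p = 0.00109). The cysteinyl gene Cars (chr7:143557230-143600090, minus strand) had 839, 769.6 and 933 normalised reads in NIC-Prmt1 cells, against 1492 and 1593 in NIC cells (-0.87 ± 0.12, adjusted p = 0.00145). Its groups did not overlap either, and its exons share 211 bases with an antisense gene, Gm15580. The arginyl gene Rars, a member of the multisynthetase complex (chr11:35808381-35834506, minus strand), had 1269.9, 1276 and 1413 normalised reads in NIC-Prmt1 cells, against 2266 and 1972 in NIC cells (-0.68 ± 0.13, adjusted p = 0.00568). Sars, Hars (histidyl), Tars, Yars, Iars, Kars and Gars also fell, with fold changes of -0.62 to -0.36. Hars shares 195 exon bases with its mitochondrial neighbour Hars2 on the other strand, so those reads cannot be assigned. Cars2, Ears2, Farsb, Nars2, Tarsl2, Vars2 and Yars likewise share 30 to 465 exon bases with a neighbouring gene.

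Wars, the tryptophanyl gene and one known to be induced by interferon gamma (chr12:108860030-108894174, minus strand), was the cytosolic gene that rose. It had 2229.9, 2609 and 2420.3 normalised reads in NIC-Prmt1 cells, against 1608 and 1689 in NIC cells (0.55 ± 0.11, adjusted p = 0.00577). All 3 NIC-Prmt1 libraries were above both NIC libraries. The mitochondrial alanyl gene Aars2 (chr17:45506841-45520843, plus strand) had 402, 306 and 372 normalised reads in NIC-Prmt1 cells, against 236 and 242 in NIC cells (0.58 ± 0.16, adjusted p = 0.0221). Rars2, the mitochondrial arginyl gene (chr4:34614957-34660167, plus strand), had 306, 330.4 and 333 normalised reads in NIC-Prmt1 cells, against 254 and 234 in NIC cells (0.40 ± 0.12, adjusted p = 0.0299). The mitochondrial valyl gene Vars2 also rose (0.36 ± 0.11, adjusted p = 0.0329).

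The calls of Cars, Nars, Rars, Sars and Wars held in every alternative tried. With the near-identical pairs averaged 9 members passed (8 lower and Wars higher), and 8 and 5 passed without NIC replicate 1 and NIC replicate 2. The call of Aars2 was lost without NIC replicate 1 or 2 or NIC-Prmt1 replicate 1 or 3 and with averaging (highest adjusted p = 0.0909), and Rars2 and Vars2 were each lost without either NIC library and under 6 or more further alternatives (highest adjusted p = 0.144 and 0.133). Hars, Tars and Yars lost their calls without NIC replicate 2, Iars and Kars without either NIC library, and Gars under 10 alternatives (highest adjusted p = 0.226).

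**Figure D3:**
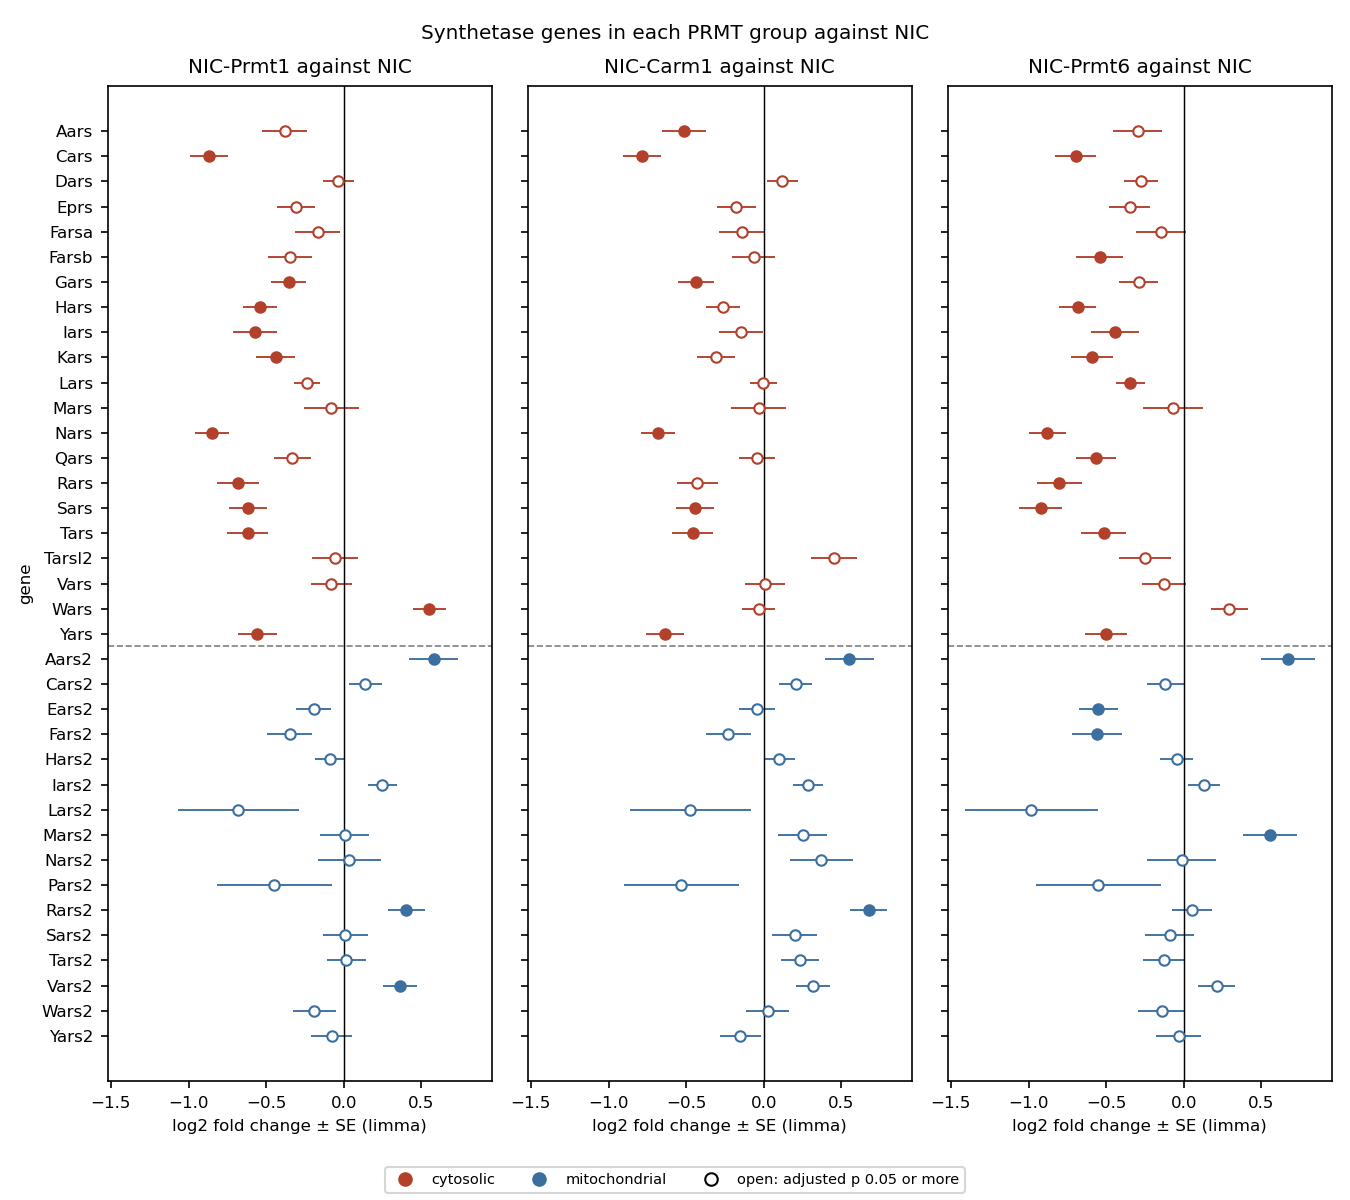
Log2 fold change of 37 of the synthetase genes (rows, cytosolic above the dashed line and mitochondrial below) in NIC-Prmt1, NIC-Carm1 and NIC-Prmt6 cells against NIC, with the limma standard error as bars; filled points passed an adjusted p of 0.05. Of the cytosolic genes 10, 7 and 12 are filled on the lower side, Aars2 is filled on the higher side in all 3 panels, and the panels share the NIC libraries.

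NIC-Carm1 cells showed fewer changes. Against NIC, 9 of the 38 genes passed, 7 lower and 2 higher, where 16.0% of all genes passed, 9.36% lower and 6.65% higher. All 7 lower genes were cytosolic and both higher ones mitochondrial. The cytosolic median was -0.176 with 18 of 21 below 0, and the mitochondrial median was 0.205 with 5 of 17 below 0, beside an all-gene median of 0.003 with 49.6% below 0. These comparisons use the same NIC libraries as those of the other methyltransferase groups, so the 3 sets of fold changes are not independent of each other.

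Cars had 1016, 859 and 819 normalised reads in NIC-Carm1 cells (log2 fold change against NIC -0.79 ± 0.12, adjusted p = 0.00372), below both NIC libraries throughout. Nars had 4520.0, 3700.1 and 3628 normalised reads in NIC-Carm1 cells (-0.68 ± 0.11, adjusted p = 0.00445). Yars had 1209.7, 1017 and 1135 normalised reads in NIC-Carm1 cells, against 1622 and 1861 in NIC cells (-0.64 ± 0.12, adjusted p = 0.00989). In all 3 genes replicate 1 was the highest NIC-Carm1 library and still lay below NIC. Gars, Aars, Sars and Tars fell as well, with fold changes of -0.51 to -0.44. Aars had 2253, 1605 and 1618 normalised reads in NIC-Carm1 cells, against 2521 and 2628 in NIC cells, and its exons share 1326 bases with Exosc6 on the same strand. In the other groups Aars had 2038, 1797 and 2110.3 normalised reads in NIC-Prmt1 and 2098 and 2095 in NIC-Prmt6 cells, below both NIC libraries but short of the threshold (-0.38 ± 0.14 and -0.30 ± 0.16, adjusted p = 0.0706 and 0.166).

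Rars2 was the most raised member. It had 398, 388 and 385 normalised reads in NIC-Carm1 cells, against 254 and 234 in NIC cells (0.68 ± 0.12, adjusted p = 0.00638), and its 3 NIC-Carm1 libraries were nearly equal. Aars2 had 401, 325 and 331 normalised reads in NIC-Carm1 cells (0.55 ± 0.16, adjusted p = 0.0412). No alternative reversed a direction, but none of the 9 calls survived averaging of NIC-Carm1 replicates 2 and 3 and of the NIC-Prmt6 pair, where 341 genes passed in all and Cars, Nars and Rars2 had adjusted p-values of 0.0502, 0.0606 and 0.0710. Yars also lost its call without NIC replicate 2, and Aars, Aars2, Gars, Sars and Tars each lost theirs under 8 or more alternatives (highest adjusted p between 0.161 and 0.220). Only 3 members passed without NIC replicate 2, and 4 without NIC replicate 1, NIC-Carm1 replicate 2 or 3, or NIC-Prmt6 replicate 1 or 2.

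NIC-Prmt6 libraries had the lowest mean cytosolic level, though close to NIC-Prmt1. Between these 2 groups the cytosolic median difference was 0.046, and 8 of the 21 cytosolic genes were lower in NIC-Prmt1. Against NIC, 16 of the 38 genes passed, 14 lower and 2 higher, where 36.8% of all genes passed, 17.8% lower and 19.0% higher. Of the cytosolic genes 12 of 21 fell, with a median of -0.445 and 20 of 21 below 0, against an all-gene median of -0.011 with 50.8% below 0. In the mitochondrial class 2 fell and 2 rose, with a median of -0.092 and 12 of 17 below 0.

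Nars had 3383 and 3476 normalised reads in NIC-Prmt6 cells, near the NIC-Prmt1 values and below both NIC libraries (log2 fold change -0.88 ± 0.12, adjusted p = 7.01e-04). Sars (chr3:108424865-108445209, minus strand) had 3006 and 3062 normalised reads in NIC-Prmt6 cells, against 5650 and 5859 in NIC cells (-0.92 ± 0.14, adjusted p = 0.00103). Hars had 1423 and 1563 normalised reads in NIC-Prmt6 cells, against 2295 and 2498 in NIC cells (-0.68 ± 0.12, adjusted p = 0.00233). None of these groups overlapped. Rars (-0.80 ± 0.15), Cars (-0.70 ± 0.13), Kars, Qars, Lars (leucyl), Yars, Tars, Farsb (a subunit of the phenylalanyl enzyme) and Iars fell as well, the last 7 with fold changes of -0.59 to -0.34.

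Aars2 had 352 and 411 normalised reads in NIC-Prmt6 cells, against 236 and 242 in NIC cells (0.67 ± 0.17, adjusted p = 0.0138). Mars2 had 228 and 237 normalised reads in NIC-Prmt6 cells, against 145 and 173 in NIC cells (0.55 ± 0.17, adjusted p = 0.0300). The mitochondrial glutamyl gene Ears2 fell, with 319 and 318 normalised reads in NIC-Prmt6 cells, against 467 and 467 in NIC cells (-0.55 ± 0.13, adjusted p = 0.00786), as did the mitochondrial phenylalanyl gene Fars2 (-0.56 ± 0.16, adjusted p = 0.0208), which shares 616 exon bases with Nrn1 and Lyrm4 on the other strand. Rars2, raised in the other methyltransferase groups, had 241 and 266 normalised reads in NIC-Prmt6 cells (0.05 ± 0.13 against NIC).

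The NIC-Prmt6 pair was nearly identical, which bears on every value of that group. With it and NIC-Carm1 replicates 2 and 3 each averaged to 1 library, which leaves a lone NIC-Prmt6 library that is assumed to vary like the other groups, 5 members passed against NIC (Cars, Hars, Nars, Rars and Sars, all lower), and these were also the calls that held in every alternative. Without NIC-Prmt6 replicate 1 or 2 there were 7 calls each, and without NIC replicate 2 there were 8. The call of Aars2 was lost without NIC replicate 1 or 2 or NIC-Prmt6 replicate 2, and that of Mars2 without NIC replicate 1 or either NIC-Prmt6 library (highest adjusted p = 0.113 and 0.189). Kars lost its call without NIC replicate 2 or NIC-Prmt6 replicate 1, and Qars without NIC-Prmt6 replicate 1. Ears2, Fars2, Farsb, Lars, Tars, Yars and Iars lost theirs without either NIC-Prmt6 library. Fars2, Lars, Tars and Iars also lost theirs without either NIC library, and Farsb and Yars without NIC replicate 2. The Iars call was lost under 9 alternatives, among them each NIC-Prmt1 library left out.

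The other 17 members passed in no comparison with NIC. They were 6 cytosolic genes, Dars (aspartyl), Eprs, Farsa (the other phenylalanyl subunit), Mars, Tarsl2 and Vars (valyl), and 11 mitochondrial ones. Tarsl2 had the highest fold change among the 6 (0.45 ± 0.15 in NIC-Carm1, adjusted p = 0.0679). The mitochondrial genes included Cars2, Hars2, Iars2, Nars2, Sars2, Tars2, Wars2 and Yars2, which serve the amino acids of their cytosolic namesakes, with Lars2 and Pars2. Iars2 came nearest to the threshold (0.25 ± 0.09 in NIC-Prmt1 and 0.28 ± 0.09 in NIC-Carm1, adjusted p = 0.0706 and 0.0666), and 2148 of its exon bases lie over Rab3gap2 and another gene on the opposite strand.

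**Figure D4:**
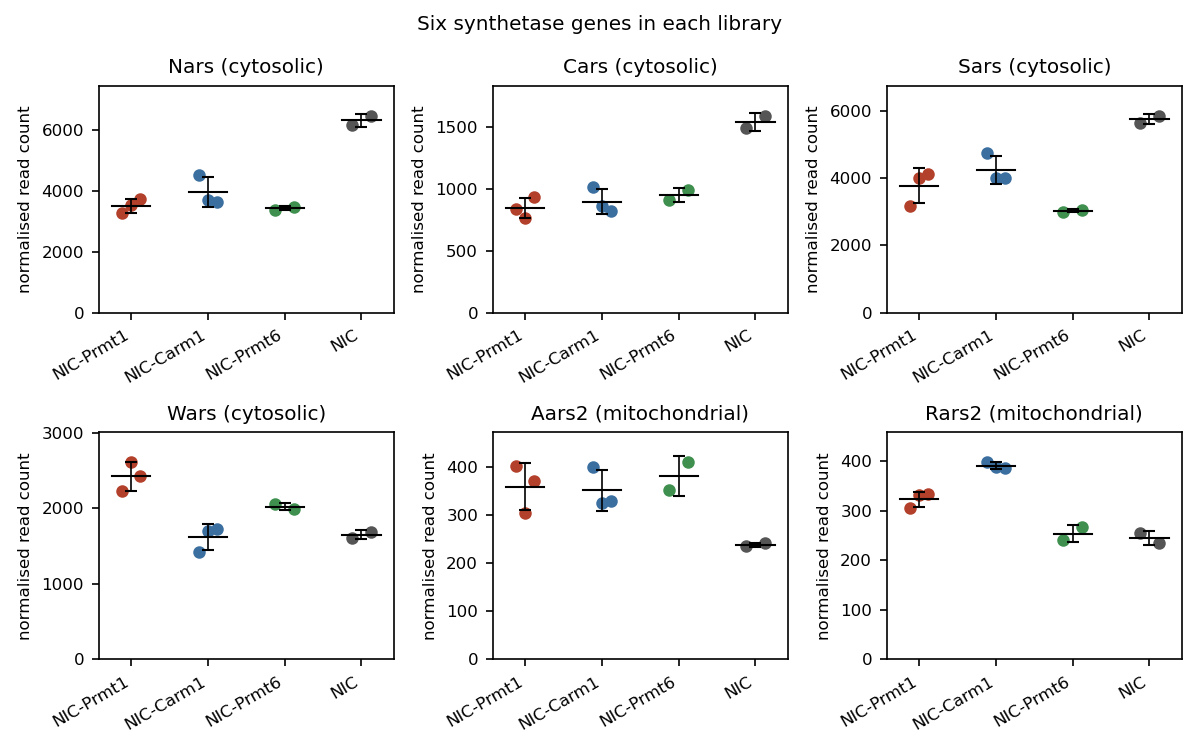
Normalised read counts of 6 synthetase genes in each library (points), with the group mean (line) and SD (bars), for NIC-Prmt1 (n = 3), NIC-Carm1 (n = 3), NIC-Prmt6 (n = 2) and NIC (n = 2). Nars, Cars and Sars are lower in all 8 methyltransferase libraries than in NIC, Wars is high in NIC-Prmt1, Aars2 is higher in all 8, and Rars2 is highest in NIC-Carm1.

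For 13 amino acids the cytosolic gene was set beside the separate mitochondrial gene. Against NIC, the cytosolic fold change lay below the mitochondrial one for 11 of the 13 in NIC-Prmt1, 12 in NIC-Carm1 and 11 in NIC-Prmt6 cells, with median differences of -0.627, -0.483 and -0.579 on the log2 scale. Leucine was an exception in all 3, since Lars2 was lower than Lars. Tryptophan was an exception in NIC-Prmt1 and NIC-Prmt6. For arginine, Rars and Rars2 had fold changes of -0.68 and 0.40 in NIC-Prmt1, -0.43 and 0.68 in NIC-Carm1 and -0.80 and 0.05 in NIC-Prmt6. For alanine, Aars and Aars2 had -0.38 and 0.58, -0.51 and 0.55, and -0.30 and 0.67 in the same order of groups. Glutamate and proline, which share Eprs, and phenylalanine, with the subunits of Farsa and Farsb, were not among the 13. Fold changes were -0.31, -0.18 and -0.35 for Eprs in the same order. Ears2 had -0.19, -0.04 and -0.55, and Pars2 had -0.45, -0.53 and -0.55. Farsa had -0.17, -0.14 and -0.15 and Farsb -0.35, -0.07 and -0.54, against -0.35, -0.23 and -0.56 for Fars2. Only Eprs against Ears2 in NIC-Prmt1 and NIC-Carm1 had the cytosolic gene lower. The glycyl and lysyl enzymes have no such pair. Gars had 1474, 1161 and 1308 normalised reads in NIC-Prmt1, 1317, 1175 and 1220.0 in NIC-Carm1 and 1404 and 1334 in NIC-Prmt6 cells, against 1576 and 1777 in NIC cells. Kars had 2664, 3431 and 3583 in NIC-Prmt1, 3491, 3545 and 3484 in NIC-Carm1 and 2771 and 3004 in NIC-Prmt6 cells, against 4131 and 4561 in NIC cells. Both dual genes thus lay below NIC in all 8 libraries, though Gars passed in NIC-Prmt1 and NIC-Carm1 (adjusted p = 0.0409 and 0.0297) and Kars in NIC-Prmt1 and NIC-Prmt6 (0.0249 and 0.00821).

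**Figure D5:**
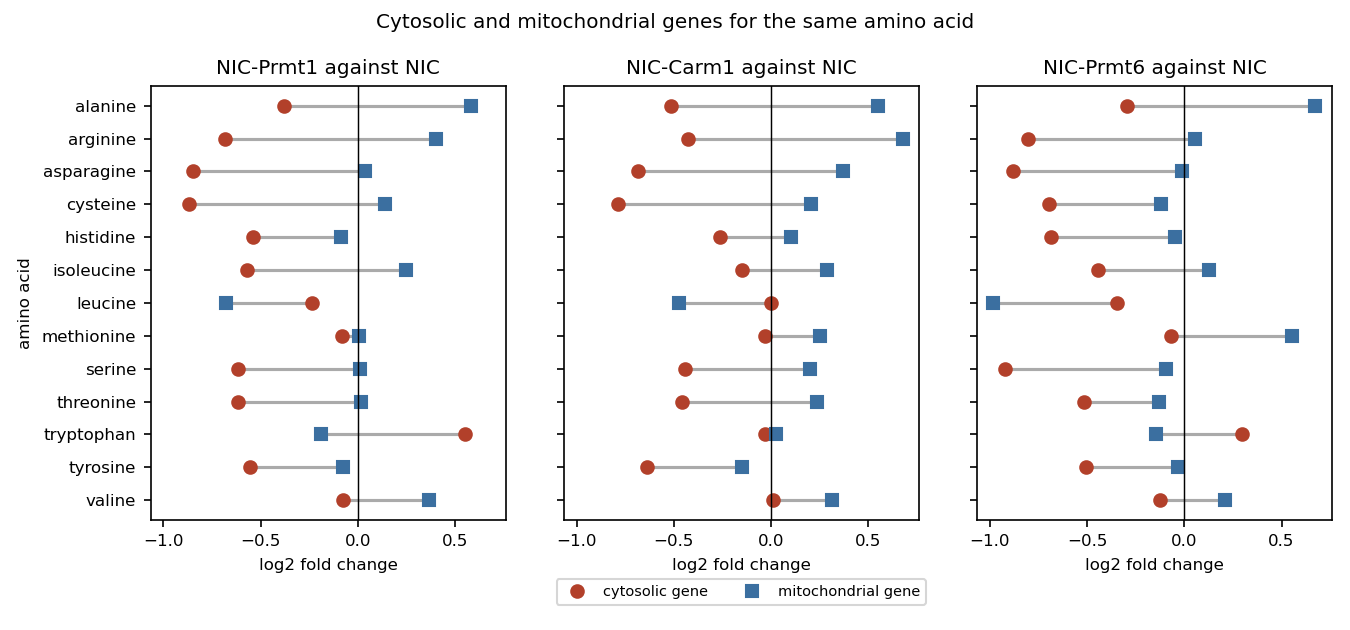
Log2 fold changes against NIC for 13 amino acids with a cytosolic gene (circles) and a separate mitochondrial gene (squares), joined by a line, in NIC-Prmt1, NIC-Carm1 and NIC-Prmt6 cells. The circle lies left of the square for 11, 12 and 11 amino acids, with leucine reversed in every panel.

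Of the 12 cytosolic genes on the list of known ATF4 targets, 7 were lower than NIC in NIC-Prmt1, 7 in NIC-Carm1 and 7 in NIC-Prmt6 cells, and Wars was higher in NIC-Prmt1, with medians of -0.468, -0.440 and -0.397. The 9 cytosolic genes outside that list (Dars, Farsa, Farsb, Hars, Kars, Qars, Rars, Tarsl2 and Vars) had medians of -0.331, -0.066 and -0.543, with 3, 0 and 5 lower calls. Among all genes tested 14.4%, 9.36% and 17.8% were lower. For the count of 0 in NIC-Carm1, 3 were lower at an unadjusted limma p under 0.05, edgeR called 0 and DESeq2 called 1. Of the genes with the motif windows above, Tars and Yars passed in all 3 comparisons. Gars passed in NIC-Prmt1 and NIC-Carm1, Iars in NIC-Prmt1 and NIC-Prmt6, and Aars in NIC-Carm1. Calls were also found among the searched cytosolic promoters without the motif. Sars passed in all 3 comparisons, Kars in NIC-Prmt1 and NIC-Prmt6, and Farsb and Qars in NIC-Prmt6. Dars, Eprs, Farsa and Tarsl2, also without the motif, passed in none. The methionyl gene Mars, also on the list, had fold changes between -0.08 and -0.03 with standard errors of 0.18 to 0.19, and shares 68 exon bases with Ddit3 on the other strand.

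The ATF4 gene list outside the synthetases (17 genes with Atf4 itself) had 11 lower and 2 higher calls in NIC-Prmt1 cells. It had 10 lower in NIC-Carm1 and 10 lower and 1 higher in NIC-Prmt6 cells, and the medians were -0.607, -0.627 and -0.441. Among all genes tested, 14.4%, 9.36% and 17.8% were lower and 15.2%, 6.65% and 19.0% higher in the same order of groups. The asparagine synthetase gene Asns, which makes the amino acid that Nars attaches, had 657, 837 and 847 normalised reads in NIC-Prmt1, 1125, 999 and 1035 in NIC-Carm1 and 839 and 757 in NIC-Prmt6 cells, against 1814 and 1959 in NIC cells. Its log2 fold changes were -1.28 ± 0.13, -0.84 ± 0.13 and -1.24 ± 0.14 (limma, adjusted p = 3.86e-04, 0.00326 and 2.74e-04). Asns lay below NIC in all 8 libraries, as Nars did, and its fall was the deeper one. The mRNA of Atf4 itself had 13278, 12131 and 15333 normalised reads in NIC-Prmt1, 10112, 7025 and 7270.4 in NIC-Carm1 and 13076 and 12917 in NIC-Prmt6 cells, against 17240 and 14558 in NIC cells. It fell in NIC-Carm1 only past the threshold (-0.98 ± 0.17, adjusted p = 0.00556), while the values in NIC-Prmt1 and NIC-Prmt6 were -0.23 ± 0.17 and -0.29 ± 0.18. On a list of 7 genes of amino acid sensing and related control, which includes Myc and Mycn, Eif2ak3, the PERK kinase that acts upstream of ATF4, fell in all 3 comparisons (-1.11 ± 0.21, -0.73 ± 0.21 and -0.90 ± 0.23). The list had 2 lower calls in NIC-Prmt1, 5 in NIC-Carm1 and 2 in NIC-Prmt6 cells, beside the same all-gene shares of 14.4%, 9.36% and 17.8%. With 7 genes, a count of 2 is not read as a change of the list. Besides Eif2ak3, the lower gene in NIC-Prmt1 and NIC-Prmt6 was Eif2s1, a subunit of the initiation factor that PERK phosphorylates. In NIC-Carm1 the others were Ppp1r15a and Ppp1r15b, which direct the dephosphorylation of that factor, and the transcription factor genes Myc and Mycn.

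The 8 catalytic members of the multisynthetase complex on the list (Dars, Eprs, Iars, Kars, Lars, Mars, Qars and Rars) had 3 lower calls in NIC-Prmt1, 0 in NIC-Carm1 and 5 in NIC-Prmt6 cells, with medians of -0.320, -0.096 and -0.397, where 14.4%, 9.36% and 17.8% of all genes were lower. For NIC-Carm1, 2 were lower at an unadjusted limma p under 0.05, edgeR called 0 and DESeq2 called 1. The 13 cytosolic genes outside the complex had 7 lower calls in each comparison and medians of -0.380, -0.437 and -0.503. Eprs, the fused glutamyl and prolyl enzyme, had fold changes of -0.31 ± 0.12, -0.18 ± 0.12 and -0.35 ± 0.13 and did not pass. All 3 scaffold genes fell in NIC-Prmt1 and in NIC-Prmt6 cells. The fold changes were -0.30 ± 0.10 and -0.52 ± 0.11 for Aimp1, -0.59 ± 0.14 and -0.51 ± 0.15 for Aimp2, and -0.62 ± 0.17 and -0.58 ± 0.19 for Eef1e1. Their NIC-Carm1 values of -0.18 ± 0.10, -0.42 ± 0.14 and -0.27 ± 0.17 did not pass in limma, with 1 of the 3 lower at an unadjusted p under 0.05, 0 called by edgeR and 1 by DESeq2.

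Mitochondria have no glutaminyl synthetase and make that charged tRNA with the amidotransferase of Qrsl1, Gatb and Gatc. Qrsl1 had 245, 174 and 226 normalised reads in NIC-Prmt1 cells, against 102 and 140.4 in NIC cells (0.83 ± 0.21, adjusted p = 0.0162). Gatb had 391, 369 and 454 normalised reads in NIC-Prmt1 cells, against 264 and 326 in NIC cells (0.46 ± 0.14, adjusted p = 0.0331). Both were above NIC in each NIC-Prmt1 library. Gatc and the initiator tRNA formyltransferase gene Mtfmt did not pass against NIC. Of 10 mitochondrial translation factor genes, 1 rose and 1 fell in NIC-Prmt1 (Guf1, 0.51 ± 0.13, and Mtrf1l, -0.71 ± 0.17), 1 rose and 1 fell in NIC-Carm1 (Guf1, 0.45 ± 0.13, and Mrrf, -0.45 ± 0.12) and 1 fell in NIC-Prmt6 (Tufm, -0.33 ± 0.10). These counts are near or below the background, since 15.2%, 6.65% and 19.0% of all genes were higher and 14.4%, 9.36% and 17.8% lower in the same comparisons. Of 7 cytosolic elongation factor genes, 1 rose in NIC-Prmt1, 2 fell in NIC-Carm1 and 3 fell in NIC-Prmt6 cells, with medians of -0.262, -0.382 and -0.517. Those lower were Eef1d and Eef1g in both of these groups and Eef1b2 in NIC-Prmt6, all subunits of the exchange factor that reloads the tRNA carrier of the ribosome.

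Between the methyltransferase groups, NIC-Prmt1 and NIC-Carm1 cells differed in 4 of the 38 genes, all cytosolic, 1 higher and 3 lower in NIC-Prmt1, where 26.8% of all genes passed, 14.9% higher and 11.8% lower. Wars was higher in NIC-Prmt1, at 2229.9, 2609 and 2420.3 normalised reads against 1419, 1702 and 1727 in NIC-Carm1 (0.58 ± 0.10, adjusted p = 0.00349), a call that held in every alternative. Tarsl2 had 265, 251 and 308 normalised reads in NIC-Prmt1 cells, against 411, 361 and 399 in NIC-Carm1 cells (-0.51 ± 0.13, adjusted p = 0.0208). Its groups did not overlap, but the call was lost without NIC-Prmt1 replicate 1 or NIC-Carm1 replicate 3 and with averaging (highest adjusted p = 0.0768). Iars had 1526, 1482 and 1509.8 normalised reads in NIC-Prmt1 cells, against 2551, 1810.2 and 1776 in NIC-Carm1 cells (-0.42 ± 0.13, adjusted p = 0.0342). Lars had 1952, 2125 and 1957 normalised reads in NIC-Prmt1 cells, against 2525, 2254 and 2323 in NIC-Carm1 cells (-0.23 ± 0.08, adjusted p = 0.0445). Neither overlapped between groups. Iars lost its call when any 1 NIC-Prmt1 or NIC-Prmt6 library was left out (highest adjusted p = 0.0797), and Lars under 11 alternatives (highest adjusted p = 0.152). Only Wars passed with averaging or without NIC-Prmt1 replicate 1. There were 2 calls without NIC-Prmt1 replicate 3, NIC-Carm1 replicate 3 or either NIC-Prmt6 library.

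The comparison of NIC-Prmt1 with NIC-Prmt6 cells had the fewest limma calls, both among the synthetase genes and among all genes. None of the 38 genes passed the limma threshold, where 7.49% of all genes did, 2.54% higher and 4.94% lower. At an unadjusted p under 0.05 there were 8 (7 higher and 1 lower in NIC-Prmt1, where 25.6% of all genes were), edgeR called 0 and DESeq2 called 1. The smallest adjusted p was that of Mars2, with 141, 167 and 171 normalised reads in NIC-Prmt1 cells and 228 and 237 in NIC-Prmt6 cells (-0.55 ± 0.16, adjusted p = 0.0642). Without NIC-Prmt1 replicate 1 there were 2 calls and without NIC-Carm1 replicate 1 there was 1.

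NIC-Carm1 and NIC-Prmt6 cells differed in 14 of the 38 genes, 13 of them higher in NIC-Carm1, where 39.2% of all genes passed, 18.4% higher and 20.9% lower. The median fold change was 0.196 for the cytosolic genes (8 higher, 1 lower) and 0.292 for the mitochondrial genes (5 higher), beside -0.003 for all genes. Rars2 had 398, 388 and 385 normalised reads in NIC-Carm1 cells and 241 and 266 in NIC-Prmt6 cells (0.62 ± 0.12, adjusted p = 0.00324). Tarsl2 had 411, 361 and 399 normalised reads in NIC-Carm1 cells and 268 and 213 in NIC-Prmt6 cells (0.70 ± 0.15, adjusted p = 0.00562). Qars had 6151, 5032 and 5108 normalised reads in NIC-Carm1 cells and 3712 and 3815 in NIC-Prmt6 cells (0.52 ± 0.12, adjusted p = 0.00703). No library of either group crossed into the other for these genes. Dars was higher in NIC-Carm1 by 0.39 ± 0.10, and both members of the arginyl pair were higher, with Rars at 0.38 ± 0.13. Wars was the member that was lower (-0.33 ± 0.11, adjusted p = 0.0363), a call lost without NIC-Carm1 replicate 1 or 2 or either NIC-Prmt6 library (highest adjusted p = 0.192). All 14 calls were lost when the near-identical pairs, which touch both of these groups, were averaged, and 3 and 2 members passed without NIC-Prmt6 replicate 1 and 2. Of the 10 mitochondrial translation factor genes, 5 were also higher in NIC-Carm1 (Gfm2, Guf1, Mtif2, Mtif3 and Mtrf1) and none lower, with a median of 0.315.

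Wars was set beside the interferon response list because of its known induction by interferon gamma. It had 2056 and 1986 normalised reads in NIC-Prmt6 cells, above both NIC libraries but short of the threshold (0.29 ± 0.12, adjusted p = 0.0773). Of the 12 interferon genes, 9 were lower and 1 higher in NIC-Prmt1, 1 lower in NIC-Carm1 and 7 lower and 1 higher in NIC-Prmt6 cells. The medians were -1.365, -0.313 and -1.128. Among all genes tested, 14.4%, 9.36% and 17.8% were lower and 15.2%, 6.65% and 19.0% higher. The NIC-Carm1 count and the counts of higher genes are therefore near or below the background. The higher gene on the list was Irf1, an interferon regulatory transcription factor. Irf1 had 11931, 8891 and 11823 normalised reads in NIC-Prmt1, 6638, 7756 and 8197 in NIC-Carm1 and 14068 and 14040.1 in NIC-Prmt6 cells, against 6192 and 8188 in NIC cells. In NIC-Prmt1 cells Wars and Irf1 lay above both NIC libraries, while most of the list was lower than NIC. The list covers the interferon response in general and was not chosen for interferon gamma. The part of interferon gamma in the level of Wars was not tested.

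Lars2 behaved unlike every other member. It had 14081, 13691 and 18507 normalised reads in NIC-Prmt1, 24517, 15143 and 14718 in NIC-Carm1 and 21293 and 7212 in NIC-Prmt6 cells, against 21815 and 27452 in NIC cells. The NIC-Prmt6 libraries, nearly identical elsewhere, differed 2.95-fold in Lars2, the largest difference among the 8053 genes with a mean of at least 500 in that group. No other member differed by more than 0.34 on the log2 scale between them. The same libraries differed in 2 RNAs that lack a normal poly-A tail, Rmrp (84.2 and 10.3 normalised reads) and Rpph1 (62.5 and 5.16), but little in another, Malat1 (28319 and 26298). Rpph1 also differed between NIC replicates 1 and 2 (64.3 and 23.4), where Lars2 was the lower in replicate 1. Bases 3278 to 3349 of the 3894-base Lars2-201 transcript match Gm15564, a gene on another chromosome, over 72 bases at 98.6% identity, so reads there could be shared. The part of the shared bases or of these RNAs in the spread of Lars2 was not tested. Lars2 did not pass against NIC in any group (-0.68 ± 0.39, -0.47 ± 0.39 and -0.98 ± 0.43, adjusted p = 0.209, 0.441 and 0.0971). It supplies a large part of the mitochondrial reads, so the share of reads from that class carries its spread (0.0852% to 0.102% in NIC-Prmt1, 0.0961% to 0.131% in NIC-Carm1 and 0.0562% to 0.110% in NIC-Prmt6, against 0.106% to 0.125% in NIC). Without it, the class medians against NIC were 0.014, 0.219 and -0.070.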

How the data were processed

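Poly-A RNA libraries were made with a TruSeq kit from mammary epithelial cells freed by enzymes and enriched by short spins, per the labels' protocols. The submitters' processing notes name TopHat2 2.0.10, HTSeq 0.6.0, DESeq 1.18.0 and the mm10 build. The annotation, strand setting and filter were not stated there, so reads of overlapping genes cannot be told apart. The deposited signal is the authors' read count per gene divided by a size factor per library: 100% of values were whole multiples of a step within 0.01.

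limma-trend (limma 3.58.1, R 4.3.3) was fitted to log2(value + 1) for 15694 genes that reached 10 in at least 2 libraries, as 4 group means over all 10 libraries (6 residual degrees of freedom). Its p-values were Benjamini-Hochberg adjusted over all genes, with a threshold of 0.05. Fold changes are on the log2(value + 1) scale, ± SE. The fit was also run on simulated data, in which all libraries were drawn independently, unlike the near-identical pairs here. Alternatives were pseudocounts of 0.5 and 5, no filter or one of 50, TMM, edgeR 4.0.16 and DESeq2 1.42.0 on recovered reads, a replicate block, averaged near-identical libraries, and leaving out each library. Coordinates are from GENCODE on GRCm38. Genes described in full were the 3 with the smallest adjusted p per direction and comparison, Gars, Kars, Wars and Aars, and other genes were singled out after their values were seen. The members and lists were chosen with earlier results of these data known. Results for a few single items are not reported here, though counts and medians over lists include them.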

Additional observations from a re-analysis of the deposited data

How the results depend on the processing

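The direction of every member call held in all alternatives. Pseudocounts of 0.5 and 5, no filter, the filter of 50, TMM and edgeR gave the same member counts, and DESeq2 called 16, 12 and 16 members against NIC in NIC-Prmt1, NIC-Carm1 and NIC-Prmt6, 6 in NIC-Prmt1 against NIC-Carm1, 1 in NIC-Prmt1 against NIC-Prmt6 and 14 in NIC-Carm1 against NIC-Prmt6. Averaging the near-identical libraries gave 9 members called in NIC-Prmt1 against NIC, 0 in NIC-Carm1 against NIC, 5 in NIC-Prmt6 against NIC, 1 in NIC-Prmt1 against NIC-Carm1 and 0 in NIC-Carm1 against NIC-Prmt6, from 2606, 341, 1667, 1364 and 1261 genes called in all; that fit averages both pairs at once and has fewer libraries. Same-numbered replicates of different groups showed no strong common deviation (13 pairs, correlations -0.132 to 0.1). In groups of 2 libraries the deviations mirror each other, so these correlations are not independent. They cannot show whether same-numbered libraries shared a batch. The replicate block lowered the NIC-Carm1 against NIC count to 4. Leaving out 1 library in turn gave 5 to 19 members in NIC-Prmt1, 3 to 12 in NIC-Carm1 and 7 to 19 in NIC-Prmt6 against NIC, 1 to 4 in NIC-Prmt1 against NIC-Carm1, 0 to 2 in NIC-Prmt1 against NIC-Prmt6 and 2 to 16 in NIC-Carm1 against NIC-Prmt6. Calls kept in every alternative numbered 5 of 14, 0 of 9, 5 of 16, 1 of 4 and 0 of 14 in the comparisons with calls. Tarsl2 was called in no comparison with NIC, so counting it as mitochondrial could not change the counts of calls there. In NIC-Prmt1 against NIC-Carm1 that change took the lower cytosolic calls from 3 to 2. In NIC-Carm1 against NIC-Prmt6 it took the higher cytosolic calls from 8 to 7. Counting error weighs most on Pars2, at 27.0 to 68.9 normalised reads, and the number of libraries limits all members.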
